A study of Mus musculus with 6 samples.

Results

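The miR-183 cluster (miR-183, miR-96 and miR-182) and the paralogs miR-10a and miR-10b were measured in small RNA libraries from the sensorimotor cortex of mice after spinal cord injury (SCI). Reads of 18 to 26 nt that matched the 5 hairpins sense and without mismatch were summed per arm, a read counting as 5p or 3p by where its middle lay relative to the middle of the hairpin. Of the 10 arms, 9 had at least 1 read among 1421 miRNA arms with reads in the series, and 5, the 5p arm of each hairpin, were abundant enough to be tested among 690 arms. The SCI group was 3 male C57BL/6J mice whose spinal cord had been cut through at the cervical level, and the control group was 3 mice of the same strain and sex whose cord had been exposed and left whole. All were operated on as adults (postnatal day 90) and sampled 7 days later. Cortex was collected from each mouse separately, and both groups shared anaesthesia, opening of the neck and survival time.

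The 3 miRNAs of the miR-183 cluster are made from 1 precursor transcript and are best known from sensory organs, where they are abundant in photoreceptors, hair cells of the inner ear and sensory ganglion neurons. miR-10a and miR-10b lie inside the Hox gene clusters, which pattern the body axis behind the forebrain, and are known from posterior tissues, the spinal cord included. A miRNA guides an Argonaute protein to messenger RNAs that pair with its seed, bases 2 to 8 counted from the 5′ end, and the messages paired in this way are repressed or degraded. The hairpin precursor yields a 5p and a 3p strand, of which usually 1 is kept.

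The mature 5p sequences, from RefSeq on GRCm38.p6, show which members can share targets, and the seed is in capitals.
miR-182-5p: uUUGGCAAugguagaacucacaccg
miR-96-5p: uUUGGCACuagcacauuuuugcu
miR-183-5p: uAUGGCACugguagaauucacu
miR-10a-5p: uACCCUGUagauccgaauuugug
miR-10b-5p: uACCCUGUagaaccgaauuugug
The seeds of miR-96-5p and miR-182-5p differ at 1 base, C8A (miR-96-5p first, positions from the 5′ end). miR-183-5p differs from miR-182-5p at 4 of 22 bases, A2U, C8A, U17C and U22A, of which A2U and C8A lie in the seed. miR-10a-5p and miR-10b-5p have the same seed and differ over 23 bases only by U12A. In the RefSeq table the full seed of miR-96-5p was shared with miR-1271-5p, and that of miR-182-5p and miR-183-5p with no other mouse miRNA.

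In GENCODE M21, on GRCm38, the cluster lies on the minus strand of chromosome 6 within 3820 bases. Mir183 (ENSMUSG00000065619.2) spans 30169668 to 30169737, Mir96 (ENSMUSG00000065586.1) 30169446 to 30169551 and Mir182 (ENSMUSG00000076361.1) 30165918 to 30165992. Thus 116 bases part Mir183 from Mir96 and 3453 part Mir96 from Mir182. No other annotated transcript overlaps the 3 hairpins, and the nearest protein-coding gene is Nrf1, on the other strand, 12460 bases from Mir182. Mir10a (ENSMUSG00000065519.1) lies on the plus strand of chromosome 11, 96317165 to 96317274, between genes and 993 bases before Hoxb4. Mir10b (ENSMUSG00000065500.3) lies on the plus strand of chromosome 2, 74726070 to 74726137, in introns of Hoxd3 and Hoxd4 transcripts of the same strand and in no exon.

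The libraries held 14628518 to 23408028 reads in the SCI group and 10585062 to 24480988 in the control group, of which 72.9% to 78.2% in SCI and 78.1% to 78.9% in control libraries were counted in miRNA arms. The 10 arms together took 0.00421% to 0.005% of the arm reads in SCI libraries and 0.00475% to 0.00563% in control libraries, so each library's value of a 5p arm rests on 7 to 586 reads. Levels are CPM, the reads of an arm scaled to a common library size of miRNA arm reads with TMM, which centres most miRNAs, and single-library intervals are 95% Poisson intervals of the count, which cover counting error only. The levels of 7 miRNAs of forebrain neurons summed to 221535 to 242618 CPM in SCI and 256165 to 290202 CPM in control libraries. Of the 7, 5 were lower in SCI and 2, miR-124-3p and miR-137-3p, were higher. Their median log2 fold change was -0.15, and -0.03 with scaling by total count. No other tissue was there to compare, so the sums do not test whether the tissue is cortex. Other miRNAs of the Hox clusters were at or near 0, with 2 reads of miR-196a-5p, 7 of miR-196b-5p, 1 of miR-615-3p and 0 of the other 4 arms looked for. In whole tissue, fewer cells of a type and less RNA per cell cannot be told apart.

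Nearly all reads came from the 5p arms. miR-182-5p had 2078 reads over the 6 libraries and its 3p arm 3, or 0.144% of the hairpin's reads (95% exact binomial interval 0.0297% to 0.421%). Of these 3, the 1 read in control 1 ended at base 49 of the hairpin, before the annotated 3p strand, which starts at base 50. It counted as 3p by its middle only. miR-10a-5p had 1244 reads against 8 of miR-10a-3p (0.639%, 0.276% to 1.26%), and miR-10b-5p had 737 against 3 of miR-10b-3p (0.405%, 0.0837% to 1.18%). miR-183-5p had 149 reads against 1 of miR-183-3p, and miR-96-5p 162 against 0 of miR-96-3p, for which the same interval reaches up to 2.25%. No hairpin reached a mean of 10 reads in both arms, so the ratio of the arms was not compared between groups. On the opposite strand of the hairpins 1 read matched miR-182, 1 matched miR-10a and 0 matched the others.

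**Figure D1:**
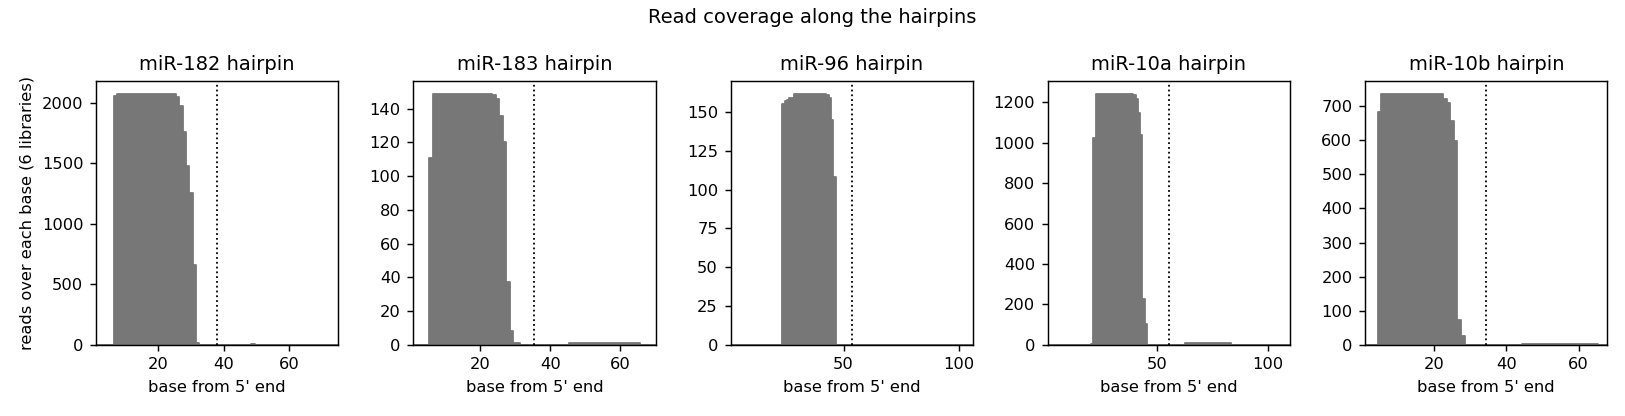
Read coverage along the 5 hairpins. The x axis is the base counted from the 5′ end of the hairpin, the y axis the number of reads of all 6 libraries over that base, and the dotted line the hairpin midpoint. Reads stack on the 5p side of each hairpin, 2078 for miR-182, 149 for miR-183, 162 for miR-96, 1244 for miR-10a and 737 for miR-10b, and 8 or fewer belong to a 3p arm.

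miR-182-5p, the most abundant member, ranked 348 of 1421 arms by mean level. It stood at 20.9, 19.5 and 18.5 CPM in SCI 1, 2 and 3 (243, 345 and 289 reads), against 35.2, 22.3 and 22.9 CPM in control 1, 2 and 3 (586, 179 and 436 reads). The groups did not overlap, SCI being lower, but the counting intervals of all 3 SCI libraries (18.4 to 23.7, 17.5 to 21.7 and 16.4 to 20.8 CPM) overlapped those of control 2 (19.1 to 25.8 CPM) and control 3 (20.8 to 25.1 CPM). Control 1 (32.4 to 38.2 CPM) stood above the rest. The means were 19.7 ± 1.21 CPM in SCI and 26.8 ± 7.31 CPM in control (SD, n = 3 each), a log2 fold change of -0.45 ± 0.21 (SE), which the edgeR quasi-likelihood test did not pass (adjusted p = 0.382). Without control 1 the log2 fold change was -0.20.

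miR-183-5p was measured near the limit of these libraries. It stood at 1.46, 1.53 and 1.47 CPM in SCI 1, 2 and 3 (17, 27 and 23 reads), against 1.80, 1.62 and 2.04 CPM in control 1, 2 and 3 (30, 13 and 39 reads). Here too the groups did not overlap, SCI being lower, yet the counting interval of each library covered the values of all others. The means were 1.49 ± 0.0349 CPM in SCI and 1.82 ± 0.214 CPM in control, a log2 fold change of -0.31 ± 0.25 (edgeR adjusted p = 0.613).

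miR-96-5p, whose seed mutations cause progressive hearing loss in mouse and human, stood at 2.07, 2.09 and 1.73 CPM in SCI 1, 2 and 3 (24, 37 and 27 reads), against 1.74, 0.871 and 1.99 CPM in control 1, 2 and 3 (29, 7 and 38 reads). The groups overlapped, with control 2 below the rest. The log2 fold change was 0.28 ± 0.31 (edgeR adjusted p = 0.717), but 0.07 without control 2 and 0.50 without control 3.

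Within the cluster miR-182-5p took 87.0% of the 5p reads over all libraries, 13.9 times as many as miR-183-5p and 12.8 times as many as miR-96-5p. Ligation and amplification can favour 1 sequence over another, so these ratios are of reads. The share of miR-182-5p was 85.6%, 84.4% and 85.3% in SCI 1, 2 and 3, and 90.9%, 89.9% and 85.0% in control 1, 2 and 3. Control 3 lay within the SCI range, and the 95% Wilson interval of its share (81.6% to 87.8%) covered the values of all 3 SCI libraries.

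miR-10a-5p ranked 389 of 1421 arms. It stood at 11.2, 14.3 and 10.9 CPM in SCI 1, 2 and 3 (130, 253 and 170 reads), against 16.5, 25.3 and 11.2 CPM in control 1, 2 and 3 (275, 203 and 213 reads). Control 2 was the highest library, and control 3 lay within the SCI range. The means were 12.1 ± 1.90 CPM in SCI and 17.7 ± 7.12 CPM in control, a log2 fold change of -0.52 ± 0.29 (edgeR adjusted p = 0.463), and -0.19 without control 2.

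miR-10b-5p ranked 431. Its levels were 5.51, 10.6 and 10.4 CPM in SCI 1, 2 and 3 (64, 187 and 163 reads), against 5.11, 6.10 and 9.91 CPM in control 1, 2 and 3 (85, 49 and 189 reads). The libraries fell into a lower and a higher set that crossed the groups, SCI 1, control 1 and control 2 at 5.11 to 6.10 CPM, and the other 3 at 9.91 to 10.6 CPM. The log2 fold change was 0.33 ± 0.32 (edgeR adjusted p = 0.673), with 0.12 without control 1, 0.17 without SCI 2, 0.21 without SCI 3, 0.58 without SCI 1 and 0.68 without control 3.

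**Figure D2:**
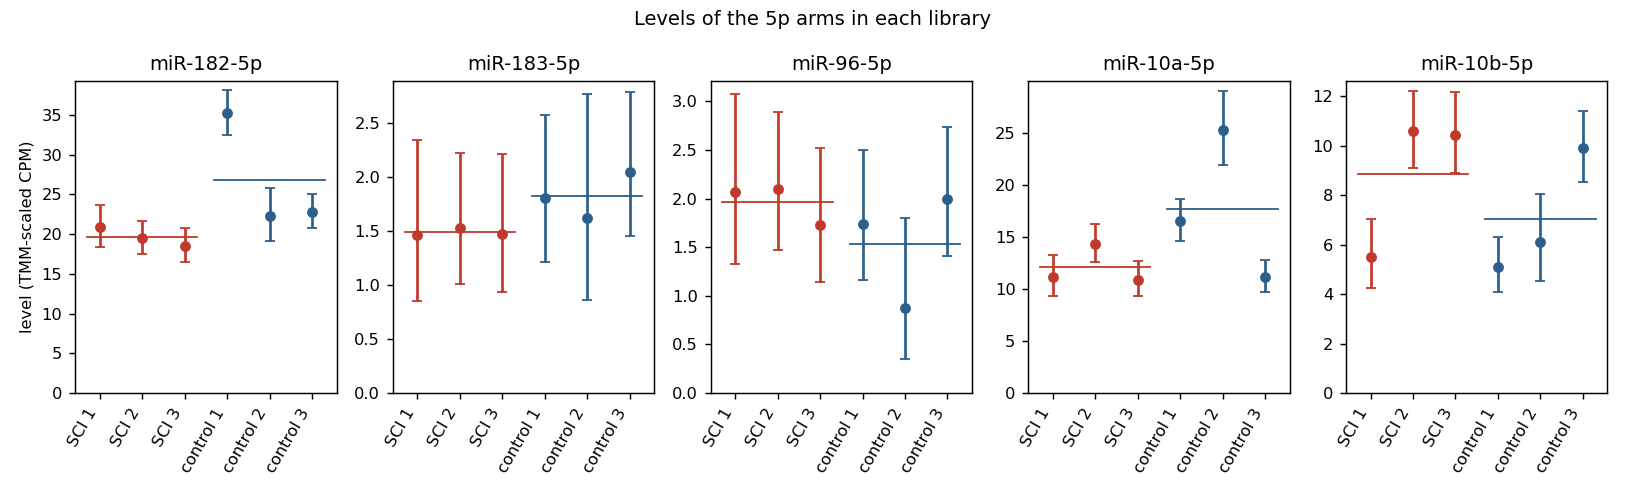
Level of each 5p arm in each library. The y axis is TMM-scaled CPM from 0, points are libraries (SCI red, control blue), bars are 95% Poisson intervals of the read count and lines are group means. miR-182-5p lies between 18.5 and 20.9 CPM in SCI libraries and at 35.2, 22.3 and 22.9 CPM in control 1, 2 and 3. Its SCI intervals overlap those of control 2 and control 3. The intervals of miR-183-5p and miR-96-5p overlap across the groups too.

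The balance between the miR-10 paralogs differed widely among libraries of the same group. miR-10a-5p made up 67.0%, 57.5% and 51.1% of the reads of the pair in SCI 1, 2 and 3 (n = 194, 440 and 333 reads), against 76.4%, 80.6% and 53.0% in control 1, 2 and 3 (n = 360, 252 and 402). Control 1 and 2 lay above every SCI library, with Wilson intervals of 71.7% to 80.5% and 75.2% to 85.0%, of which only that of control 1 met one of SCI, that of SCI 1 (60.1% to 73.2%). Control 3 (48.1% to 57.8%) lay between SCI 3 and SCI 2. The means were 58.5% ± 8.03 in SCI and 70.0% ± 14.9 in control, a difference of -11.5 percentage points (two-sided exact permutation test, p = 0.3, where 3 libraries against 3 allow no p below 0.1). The difference was -19.95 points without control 3 and -6.17 points without control 2.

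Because the paralogs differ by 1 base, a sequencing error at position 12 could turn reads of the one into the other. Among reads that start at the common 5′ end and match the other bases of the first 18, position 12 was U in 1093, A in 719, C in 2 and G in 0. Bases that belong to neither paralog were thus seen in 2 of 1814 reads. With the mean count of C and G taken off miR-10a-5p in each library, the difference between groups was -11.5 points.

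**Figure D3:**
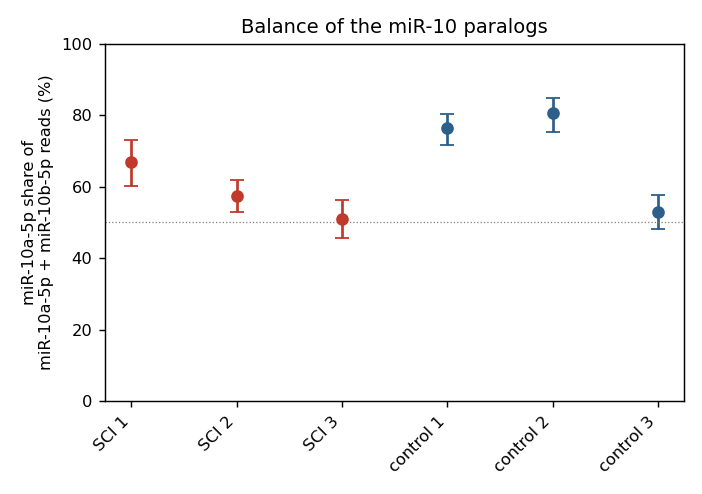
Share of miR-10a-5p in the reads of miR-10a-5p and miR-10b-5p. The y axis is percent of the pair's reads, points are libraries (SCI red, control blue), bars are 95% Wilson intervals and the dotted line marks 50%. The SCI libraries lie at 67.0%, 57.5% and 51.1%, control 1 and 2 at 76.4% and 80.6%, and control 3 at 53.0%.

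None of the 5 members passed the test between SCI and control. Across the 6 libraries the edgeR quasi-likelihood test called 0 of 690 arms (0.0%) after Benjamini-Hochberg adjustment, while 97 (14.1%) had an unadjusted p below 0.05. DESeq2 called 11 arms (1.59%), none of them a member, and gave no adjusted p for miR-183-5p and miR-96-5p. In edgeR the members' unadjusted p lay between 0.0635 (miR-182-5p) and 0.395 (miR-96-5p). The groups did not overlap for 2 of the 5, miR-182-5p and miR-183-5p, both lower in SCI, where 11.0% of all arms lay lower without overlap and 8.99% higher. The 95% intervals of the log2 fold changes were -0.93 to 0.03 for miR-182-5p, -0.87 to 0.25 for miR-183-5p, -0.42 to 0.98 for miR-96-5p, -1.17 to 0.12 for miR-10a-5p and -0.40 to 1.05 for miR-10b-5p. Each interval covers 0, so a difference in either direction is within it. Scaling by total count moved the median of all arms by about the same amount as the members (to 0.09, against -0.02 with TMM), and no member changed sign.

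**Figure D4:**
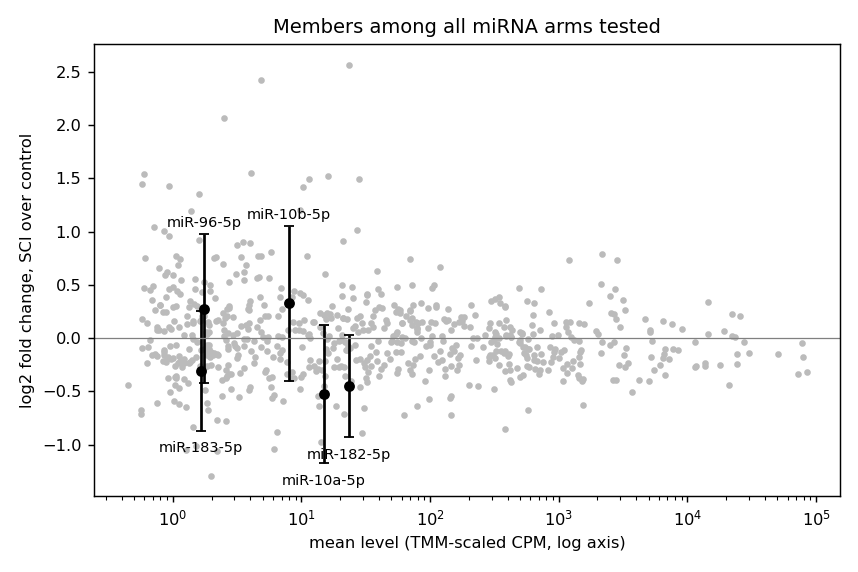
The 5 members among all 690 miRNA arms tested. The x axis is the mean level of the group means in TMM-scaled CPM on a log axis, the y axis the log2 fold change of SCI over control, grey points are the other arms and black points the members with 95% intervals. Each member's interval covers 0, and miR-10a-5p and miR-182-5p have the lowest values of the 5, -0.52 and -0.45.

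Reads of miR-182-5p were longer in SCI than in control libraries, without overlap. Nearly all of them, 99.1%, started at the same base, so the forms differ at the 3′ end only, and the bases beyond the twenty-first are in capitals.
25 nt: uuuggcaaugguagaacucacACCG
24 nt: uuuggcaaugguagaacucacACC
23 nt: uuuggcaaugguagaacucacAC
22 nt: uuuggcaaugguagaacucacA
21 nt: uuuggcaaugguagaacucac
The longest of these equals the RefSeq sequence and was the most abundant, with 643 reads, followed by the 24 nt form with 583, the 22 nt form with 279, the 23 nt form with 223 and the 21 nt form with 218.

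The mean length of miR-182-5p reads was 23.6, 23.5 and 23.9 nt in SCI 1, 2 and 3, against 23.3, 23.1 and 23.1 nt in control 1, 2 and 3. The lowest SCI library was thus above the highest control. The means were 23.7 ± 0.207 nt in SCI and 23.2 ± 0.0969 nt in control, a difference of 0.495 nt (two-sided exact permutation test, p = 0.1, the smallest that 3 against 3 can give, and 0.6 adjusted over the 6 tests of read ends). Leaving out any 1 library kept it between 0.375 and 0.561 nt. Of 443 arms with at least 50 reads in every library, 3.61% had longer reads in SCI without overlap of the groups and 9.71% had shorter ones. The median difference was -0.0166 nt, and the difference of miR-182-5p was the largest in the direction of longer reads.

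Split by length, in classes chosen after these values were seen and thus given without a test, the forms of 24 and 25 nt took 63.4%, 64.9% and 75.1% of miR-182-5p reads in SCI 1, 2 and 3, while they took 53.8%, 52.5% and 52.1% of them in control 1, 2 and 3. The Wilson intervals of SCI 2 (59.8% to 69.8%) and SCI 3 (69.8% to 79.7%) lay above those of control 1 (49.7% to 57.8%), control 2 (45.2% to 59.7%) and control 3 (47.4% to 56.7%), and that of SCI 1 (57.2% to 69.2%) met those of control 1 and 2. The 24 and 25 nt reads summed to 13.3, 12.7 and 13.9 CPM in SCI 1, 2 and 3, against 18.9, 11.7 and 11.9 CPM in control 1, 2 and 3. Control 1 was again the highest, and the other 2 controls lay below the SCI libraries. The 21 to 23 nt reads summed to 6.197, 6.11 and 4.36 CPM in SCI 1, 2 and 3, against 14.4, 7.97 and 9.43 CPM in control 1, 2 and 3, with the highest SCI value below the lowest control value. Control 1 was the highest here too. Within this class the groups overlapped for reads of 22 nt, but not for those of 21 or 23 nt. At 22 nt SCI 1 (3.18 CPM) was above control 2 (3.11 CPM) and control 3 (3.09 CPM). The log2 ratio of the group means was -0.93 for the 21 to 23 nt reads and -0.09 for the 24 and 25 nt reads. With only the most abundant read of each arm counted, here the 25 nt form, the edgeR log2 fold change of miR-182-5p was -0.16.

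**Figure D5:**
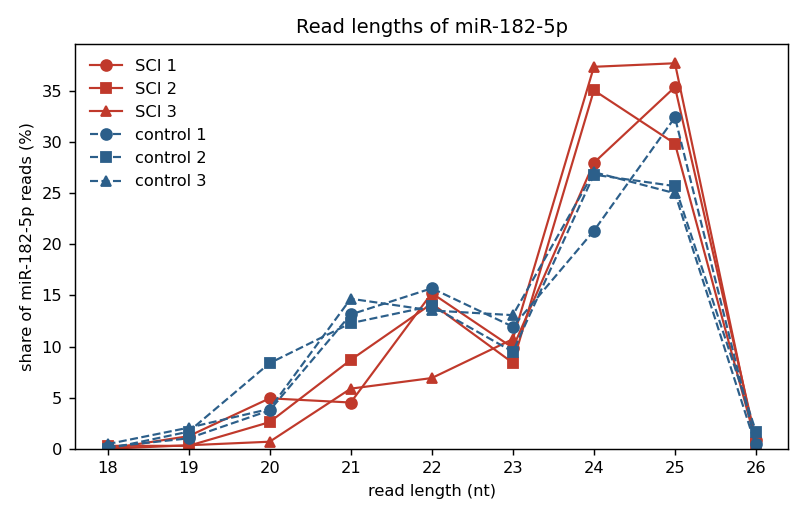
Read lengths of miR-182-5p in each library. The x axis is read length in nt, the y axis the percent of that library's miR-182-5p reads, with SCI in red solid lines and control in blue dashed lines. Reads of 24 and 25 nt together take 63.4% to 75.1% in SCI libraries and 52.1% to 53.8% in control libraries.

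The read ends of the other members of the cluster rest on few reads. Mean read length was 21.8, 21.6 and 21.8 nt for miR-183-5p in SCI 1, 2 and 3 and 21.8, 22 and 21.8 nt in control 1, 2 and 3. For miR-96-5p it was 22.5, 22.7 and 22.3 nt in SCI 1, 2 and 3 and 22.3, 22 and 22.3 nt in control 1, 2 and 3. Both overlapped between groups, and neither was tested, since each had under 50 reads in every library. Reads of miR-183-5p that started 1 base further in, which shifts the seed by 1 base, made up 25.5% of its reads over all libraries (38 of 149, Wilson interval 19.2% to 33.1%), against 0.529% for miR-182-5p and 1.23% for miR-96-5p. Its reads with the usual start made up 64.7%, 81.5% and 52.2% in SCI 1, 2 and 3. In control 1, 2 and 3 they made up 76.7%, 100% and 76.9%, where control 2 had 13 reads. The pooled interval does not cover this spread between libraries.

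The miR-10 paralogs differed from each other in their read ends, although their sequences are nearly the same. Reads that started 1 base further in made up 17.4% of miR-10a-5p (217 of 1244, Wilson interval 15.4% to 19.7%) and 7.33% of miR-10b-5p (54 of 737, 5.66% to 9.44%). Reads with 1 to 3 bases at the 3′ end that the hairpin does not hold made up 11.96% of miR-10a-5p and 4.90% of miR-10b-5p, and 151 of the 169 such reads of miR-10a-5p carried a single A. Such reads were matched to miRNA hairpins only, so a full match elsewhere in the genome was not tested. Over the 443 arms with at least 50 reads in every library the median share was 12.1%, and miR-10a-5p ranked 223. In each of the 6 libraries the share with the usual start was lower, and the share with added bases higher, for miR-10a-5p (77.7% to 84.7% and 7.10% to 13.3%) than for miR-10b-5p (87.5% to 96.5% and 3.57% to 6.59%).

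The main forms of miR-10a-5p show that the added A went with the shifted start, and the base that the hairpin does not hold is in capitals.
most abundant read: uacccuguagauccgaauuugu
shifted start, added A: acccuguagauccgaauuugugA
usual start, added A: uacccuguagauccgaauuugugA
These had 715, 77 and 41 reads. Among miR-10a-5p reads with added bases 54.4% had the shifted start (92 of 169, Wilson interval 46.9% to 61.8%), against the 17.4% among reads without, and among miR-10b-5p reads with added bases it was 5.26% (2 of 38, 1.46% to 17.3%). The most abundant reads of both paralogs were 1 base shorter than their RefSeq sequences.

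Between SCI and control the read ends of miR-10a-5p overlapped in each measure. The share with the usual start was 77.7%, 83.0% and 79.4% in SCI libraries and 82.2%, 84.7% and 81.2% in control libraries, in the order of their numbers (exact permutation test, p = 0.3). The share with added bases was 13.3%, 13.1% and 7.10% in SCI libraries, and 12.4%, 12.1% and 12.7% in control libraries (exact permutation test, p = 1.0), SCI 3 being the lowest. Adjusted over the 6 tests of read ends these were 0.75 and 1.0. Mean length was 21.8 ± 0.0511 nt in SCI and 21.8 ± 0.133 nt in control. For miR-182-5p the share with the usual start and the share with added bases overlapped too, with differences of 0.316 and -1.24 percentage points. The share of miR-182-5p with added bases depended on the read lengths taken. With reads of 20 to 24 nt its difference was -2.12 points (exact permutation test, p = 0.1, the smallest possible, and not among the 6 adjusted tests). This window selects reads by length, and the read lengths of miR-182-5p themselves differed between the groups. The window thus cannot tell a difference in added bases from the difference in length, and no conclusion is drawn from it. Over the 443 arms the share with the usual start lay higher in SCI without overlap for 28.9% and lower for 4.97%, and the share with added bases higher for 15.1% and lower for 3.39%, whereas neither miR-182-5p nor miR-10a-5p was among them.

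Across the 6 libraries the levels of the members were compared in pairs on log2(CPM + 0.5), in 5 pairs in all. miR-183-5p and miR-182-5p had a Pearson r of 0.555 (permutation p = 0.344) and a Spearman rho of 0.771 (p = 0.103, exact), and r was 0.661 without control 1 and control 3, the libraries farthest from the median, and 0.241 with scaling by total count. Neither passed after adjustment over the 5 pairs (0.657 and 0.340). For miR-96-5p and the other two miRNAs of the cluster no relation passed, with r = 0.0371 to miR-183-5p (exact permutation p = 0.856, rho -0.20, p = 0.714) and r = -0.0791 to miR-182-5p (exact permutation p = 0.575, rho -0.143, p = 0.803). Without the 2 libraries farthest from the median these were -0.848 (without control 1 and control 3) and -0.452 (without control 1 and SCI 3). Between miR-10a-5p and miR-10b-5p r was -0.454 (exact permutation p = 0.394, rho -0.429, p = 0.419). It was 0.333 without control 1 and control 2, so its sign rests on those libraries. Between miR-182-5p and miR-10b-5p r was -0.649 (exact permutation p = 0.111, rho -0.714, p = 0.136) and -0.206 without control 1 and SCI 3.

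The arms whose levels followed miR-182-5p most closely were named by the highest r over the 6 libraries among 416 other arms with a mean of at least 10 CPM, as a description. miR-200a-3p, a miRNA of epithelial cells, came first with r = 0.999. It stood at 24.0, 20.1 and 18.7 CPM in SCI 1, 2 and 3, against 60.9, 26.6 and 28.4 CPM in control 1, 2 and 3, the same order of the 6 libraries as that of miR-182-5p. Without control 1 their r was 0.996 over 5 libraries. The next were miR-140-5p (0.985), miR-455-5p (0.984), miR-29a-3p (0.982) and miR-181c-3p (0.979), which had r of 0.860 to 0.893 without control 1. For miR-10b-5p the closest were miR-3084-3p (0.942), miR-700-3p (0.934), miR-346-5p (0.916), miR-34a-3p (0.912) and miR-128-2-5p (0.890).

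All 5 miRNAs of the epithelial list (miR-200a-3p, miR-200b-3p, miR-200c-3p, miR-141-3p and miR-429-3p) were lower in SCI, with a median log2 fold change of -0.64 where that of all arms was -0.02, and 0 of 5 passed in edgeR. For miR-200b-3p and miR-200c-3p the groups overlapped. For the other 3 they did not, where 11.0% of all arms lay lower without overlap. Their levels summed to 62.5, 58.5 and 51.4 CPM in SCI 1, 2 and 3, against 125.2, 72.8 and 70.6 CPM in control 1, 2 and 3. None of the 5 was at 0 in any library. This sum was highest in control 1, as miR-182-5p was, and its part in the level of miR-182-5p was not tested.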

How the data were processed

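The authors deposited, per the file headers, each library's distinct read sequences (17 to 34 nt) with raw read counts. Trimmer, aligner and read filters are not given in the sources used here, and the submitters' processing notes name GRCm38 as the build. Libraries were made with HD adapters from mirVana RNA, per the labels' protocols. Reads of 18 to 26 nt were matched to 1174 miRNA hairpins of GENCODE M21. Arms were merged where their top read was identical or where 50% or more of the reads of the smaller one also matched the larger, and reads still in several arms were left out (0.100% to 0.153% per library). Reads with added 3′ bases did not enter the main counts. Counts were tested with edgeR 4.0.16 (quasi-likelihood, TMM scaling, low arms removed by filterByExpr at a count of 10), run in R 4.3.3. The procedure was also run on simulated counts, with the same spread for every arm and larger changes than the members showed. How it performs on changes as small as theirs was thus not tested. Alternatives used DESeq2 1.42.0 and limma 3.58.1 (voom). The SE is the log2 fold change over the square root of F. Shares were compared by exact permutation in scipy 1.17.1 (Python 3.11.15, pandas 2.3.3, numpy 2.4.6, matplotlib 3.10.9).

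Groups came from the treatment label. The labels give samples collected individually and no batch. The p-values of the group tests set the difference between groups against the spread between these samples. Those of the correlations come from permuted pairings of the libraries. All 10 member arms are reported whatever their values. The 5 arms most like miR-182-5p and miR-10b-5p, and at most 2 members of smallest unadjusted p from each of 9 marker lists, are the other miRNAs described by their changes. Outside this rule, all members of the epithelial list and of the relatives of miR-10 are named to say what the lists hold, and 3 Hox arms for their read counts, after their values were seen. Also after that, miR-124-3p, miR-137-3p, miR-204-5p, miR-211-5p and miR-1a-3p were added because they go the other way from those named by the rule. Members and lists were chosen with earlier results of these data known. The counts are of reads, with no molecular identifiers used, so intervals and floors cover counting error only.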

Additional observations from a re-analysis of the deposited data

How the results depend on the processing

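None of the 5 tested members passed under any alternative or changed direction in any of them. Over the scalings, tests, filters and read definitions the log2 fold change ranged from -0.53 to -0.16 for miR-182-5p, -0.42 to -0.19 for miR-183-5p, 0.15 to 0.40 for miR-96-5p, -0.55 to -0.41 for miR-10a-5p and 0.32 to 0.44 for miR-10b-5p. Leaving out 1 library gave -0.57 to -0.20, -0.37 to -0.21, 0.07 to 0.50, -0.78 to -0.19 and 0.12 to 0.68 in the same order. miR-183-5p, miR-96-5p and miR-10b-5p had no value with a minimum mean of 10 CPM, and DESeq2 gave no adjusted p for miR-183-5p and miR-96-5p. Over all arms the edgeR count of 0 passed became 30 without the filter on low counts, 11 in DESeq2 and 0 to 7 without 1 library (2 without SCI 1, 7 without SCI 2). The 97 at an unadjusted p under 0.05 became 149 without the filter, 59 with the minimum of 10 CPM, where fewer arms were tested, and 48 to 105 without 1 library (48 without SCI 3). The cause of the other changes was not tested. Same-numbered libraries deviated together in 1 of 3 pairs only (correlations 0.198, -0.0552 and -0.0749), and SCI 2 with control 3 had 0.218. The labels do not say whether equal numbers pair animals, and these few correlations cannot decide it. With the replicate block 0 arms passed, 103 had an unadjusted p under 0.05, and miR-182-5p stood at -0.42 (adjusted p = 0.342). Among the pairwise correlations, leaving out the 2 libraries farthest from the median turned miR-183-5p with miR-96-5p to -0.848 and miR-10a-5p with miR-10b-5p to 0.333. The mean length difference of miR-182-5p was 0.471 nt with reads of 20 to 24 nt. With the same reads its share with added bases differed by -2.12 points, against -1.24 with all lengths. The part of read length in this change was not tested. The alternatives for the arm ratio were not run, since no member hairpin had enough 3p reads. The correlations without control 1 were added after seeing the data. Depth limits miR-183-5p and miR-96-5p most, with 7 to 39 reads per library.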

Other observations

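The sequence relatives of miR-10 that lie outside the Hox clusters, miR-99a-5p, miR-99b-5p and miR-100-5p, were far more abundant, with sums of 4155, 5317 and 4374 CPM in SCI 1, 2 and 3, against 2789, 4170 and 4858 CPM in control 1, 2 and 3. All 3 were higher in SCI (median log2 fold change 0.23), and none passed in edgeR. The largest log2 fold change was that of miR-100-5p, at 629, 682 and 610 CPM in SCI 1, 2 and 3, against 440, 462 and 603 CPM in control 1, 2 and 3, without overlap (0.35 ± 0.15, edgeR adjusted p = 0.336). Of all arms, 8.99% lay higher without overlap. The groups overlapped for miR-99a-5p and miR-99b-5p.

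Markers of cells and regions that a cortical sample can hold gave the following sums, with 0 members passed in each list by edgeR. Members named first in a list are those of smallest unadjusted p, so they need not be typical of it. Of 7 miRNAs of forebrain neurons, 2 were higher and 5 lower in SCI (median -0.15), with miR-132-3p at -0.44 ± 0.13 and miR-9-5p at -0.34 ± 0.10. The 2 higher ones were miR-124-3p at 0.34 ± 0.18 and miR-137-3p at 0.16 ± 0.13. The 5 of the choroid plexus and ependyma summed to 877 to 1647 CPM in SCI and 1032 to 1647 CPM in control (3 higher, 2 lower, median 0.02), with miR-449a-5p at 0.57 ± 0.21. The 2 lower ones were miR-204-5p at -0.13 ± 0.25 and miR-211-5p at -0.14 ± 0.45. miR-449a-5p had 489 reads over all libraries, against 84202 of miR-204-5p. The 4 of endothelium and mural cells summed to 15076 to 18967 CPM in SCI and 17311 to 22820 CPM in control (4 lower, median -0.28), with miR-143-3p at -0.51 ± 0.11. The 4 of erythrocytes summed to 709.9 to 1764 CPM in SCI and 977 to 1188 CPM in control (4 higher, median 0.33). The 4 of leukocytes summed to 1154 to 1343 CPM in SCI and 1372 to 1614 CPM in control (4 lower, median -0.27), and the 3 of skeletal muscle to 545 to 614 CPM in SCI and 581 to 655 CPM in control (2 higher, 1 lower, median 0.12), with miR-206-3p at 0.90 ± 0.29. miR-206-3p had 302 reads over all libraries, against 46692 of miR-1a-3p, which stood at -0.08 ± 0.13. With scaling by total count the medians were -0.03 for forebrain neurons, 0.13 for the choroid plexus, -0.16 for endothelium and mural cells, 0.45 for erythrocytes, -0.16 for leukocytes, 0.24 for skeletal muscle, -0.51 for the epithelial list and 0.34 for the relatives of miR-10. The Hox list had 2 of 11 members tested, miR-10a-5p and miR-10b-5p, at -0.52 and 0.33, and their median turned from -0.10 to 0.02 with that scaling.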
